A study of Mus musculus with 21 samples.

Results

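Early neural genes were followed across mouse embryonic stem cells that lacked, or were depleted of, the cohesin regulators PDS5A and PDS5B or the cohesin subunits STAG1 and STAG2. The 8 genes, Pax6, Nes, Sox1, Sox3, Zic1, Pax3, Hes5 and Tubb3, were taken by gene symbol out of the 23412 symbols in each count file. All 8 were present in all 21 libraries. The cells were v6.5 male mouse embryonic stem cells (mESCs) on gelatin, either wild type (WT) or carrying CRISPR-Cas9 edits of Pds5a (Pds5a-KO) or Pds5b (Pds5b-KO). All cells, controls included, were transfected with 50 nM of an siRNA or of siGLO, a transfection control, and were harvested after 48 h. The 7 groups of 3 libraries were WT siGLO, WT siPds5b, Pds5a-KO siGLO, Pds5b-KO siGLO, and Pds5a-KO cells given siPds5b, siStag1 or siStag2. Each knockout was represented by a single clone, so that an effect of the gene and an effect of the clone cannot be told apart. The 3 replicates of a group were separate libraries of the same line, and the p-values measure the spread between these libraries, which may be technical. No neural differentiation was induced, and the design asks what loss of the cohesin regulators does to transcripts in cells kept under stem cell conditions.

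Neuroectoderm is the part of the early embryo that gives rise to the brain and spinal cord, and mESCs can be made to follow the same path in culture. The transcription factors Sox1 and Sox3, of the SoxB1 family, and Pax6 and Zic1 are switched on as cells enter the neural lineage, and Pax3 marks the dorsal neural tube and the neural crest. Nes encodes nestin, the intermediate filament of neural progenitors, Hes5 is a transcriptional target of Notch signalling that keeps progenitors undifferentiated, and Tubb3 encodes the beta-tubulin class found in neurons. Cohesin holds chromatin in loops, PDS5 proteins regulate its release from and its movement along DNA, and STAG1 or STAG2 is present in every cohesin complex.

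The promoters of 3 members are shown because they stand for the different levels found here. Pax6 is a member whose Pds5b-KO libraries lay above all others. Nes was the most abundant of the transcription factor and filament genes, and Hes5 had too few counts to be tested. Each sequence is the stretch of up to 250 bases before the annotated start (RefSeq, GRCm38.p6, written 5′ to 3′ on the strand of the gene, which is the plus strand for all 3). Capitals mark matches on either strand to the GC box GGGCGG, the CCAAT box CCAAT, the SOX motif ACAAAG or the RBPJ motif GTGGGAA.
Pax6, chr2:105668646-105668895: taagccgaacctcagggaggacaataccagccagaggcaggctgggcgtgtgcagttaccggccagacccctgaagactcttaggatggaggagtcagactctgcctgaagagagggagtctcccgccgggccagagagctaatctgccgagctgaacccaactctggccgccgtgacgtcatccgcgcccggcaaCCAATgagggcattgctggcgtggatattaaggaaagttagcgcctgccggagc
Nes, chr3:87970843-87971077: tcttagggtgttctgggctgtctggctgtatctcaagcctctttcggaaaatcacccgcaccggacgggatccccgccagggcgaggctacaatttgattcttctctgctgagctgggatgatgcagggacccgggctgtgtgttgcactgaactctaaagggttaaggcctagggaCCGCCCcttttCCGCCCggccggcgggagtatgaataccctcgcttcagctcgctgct
Hes5, chr4:154960673-154960922: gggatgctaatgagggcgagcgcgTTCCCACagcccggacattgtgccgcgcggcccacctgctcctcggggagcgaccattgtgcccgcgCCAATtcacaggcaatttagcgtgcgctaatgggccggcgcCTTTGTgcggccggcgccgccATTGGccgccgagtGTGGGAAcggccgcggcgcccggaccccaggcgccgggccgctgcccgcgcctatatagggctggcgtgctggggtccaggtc
The Hes5 window held matches to the RBPJ motif at 226 and 83 bases before the start. RBPJ is the DNA-binding partner of activated Notch, and 5.41% of all 32841 promoters in the table had at least 1 match to its motif. The same window held 2 CCAAT boxes and 1 SOX motif, which were found in 33.9% and 16.5% of all promoters. The Pax6 window shown held 1 CCAAT box, while the window of a second RefSeq start of Pax6 (chr2:105682213-105682462, 47.6% G and C, 15 CpG) held 1 SOX motif at 154 bases before that start. The Nes window held 2 GC boxes, a motif found in 32.7% of all promoters. A match is a description of the letters and does not show that a factor was bound. RefSeq entries were matched for 6 of the 8 members, without Sox3 and Pax3. The window before the start of Hes5 was 71.6% G and C with 32 CpG dinucleotides, against 60.8% and 15 for the Pax6 window shown and 58.8% and 15 for Nes, and against medians of 52.4% and 6 over all promoters. Sox1 (71.2%, 29 CpG), Tubb3 (68%, 21 CpG) and Zic1 (66%, 27 CpG) also lay above those medians. These values are for windows of 250 bases before the RefSeq start, which can lie inside the gene as placed below. Only 26 bases of the Sox1 window, 121 of Tubb3, 208 of Zic1 and 235 of Nes lie outside it.

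On the mm10 build, Pax6 is at chr2:105668900-105697364 on the plus strand (ENSMUSG00000027168), Nes at chr3:87971078-87980451 on the plus strand (ENSMUSG00000004891), and Hes5 at chr4:154960923-154962371 on the plus strand (ENSMUSG00000048001). Sox3 is at chrX:60891366-60893430 on the minus strand (ENSMUSG00000045179), Zic1 at chr9:91358058-91365810 on the minus strand (ENSMUSG00000032368), and Pax3 at chr1:78101267-78197134 on the minus strand (ENSMUSG00000004872). Sox1, at chr8:12395295-12400126 (ENSMUSG00000096014), and Tubb3, at chr8:123411424-123422015 (ENSMUSG00000062380), are both on the plus strand of chromosome 8. Whether reads were counted by strand is not given in the sources used here, so that reads of overlapping genes cannot be told apart. Pax6os1 overlaps Pax6 on the opposite strand and had 0 to 2 counts per library, and Zic4 overlaps Zic1 in the same way and had 0 to 4 counts, a range that matters for Zic1 because its own counts were low. Sox1ot covers Sox1 and Gm20388 covers Tubb3, in each case on the same strand, and Gm20421 overlaps Hes5 on the opposite strand.

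The libraries held 17311090 to 23989198 counts in genes (median 19628146). Levels are given below as raw counts or as normalized counts, which are counts scaled to a common library size of 19816922. The embryonic stem cell label was checked with 9 pluripotency genes, whose summed normalized counts were 77810 to 78840 in WT siGLO, 55370 to 59710 in Pds5a-KO siGLO, 53360 to 56660 in Pds5b-KO siGLO and 34970 to 35680 in Pds5a-KO siPds5b. In WT cells siPds5b lowered Pds5b from 2219 ± 177 to 776.2 ± 79.7 normalized counts (SD, n = 3), and Pds5b-KO cells had 275.8 ± 37.2. Pds5a RNA remained in Pds5a-KO siGLO cells at 4271 ± 500 against 5059 ± 295 in WT siGLO, so the RNA does not check the Pds5a edit. In Pds5a-KO cells, siPds5b gave 903.3 ± 169 normalized counts of Pds5b against 2366 ± 273 with siGLO, so part of this RNA remained. In the same clone, siStag1 gave 574.5 ± 59.7 normalized counts of Stag1 against 2428 ± 118 with siGLO, and siStag2 gave 875.2 ± 69.8 of Stag2 against 3256 ± 316. In bulk RNA, fewer cells that express a gene and less RNA of it per cell cannot be told apart, and this holds for each level below.

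Among the 8 genes, levels in WT siGLO per kilobase of exon fell into 3 tiers. Tubb3 had 611 ± 84.7 normalized counts per kb (SD, n = 3) and Nes had 323 ± 66.8. The SoxB1 genes were lower and close to each other, Sox3 at 64.3 ± 9.8 and Sox1 at 62.2 ± 4.07 normalized counts per kb. Pax6 (3.75 ± 1.46), Hes5 (2.04 ± 2.52), Pax3 (0.754 ± 0.423) and Zic1 (0.564 ± 0.363) were lowest on the same per-kb scale. Tubb3, the neuronal tubulin, and Nes, the progenitor filament, were thus readily detected in undifferentiated mESCs. Raw counts over the 21 libraries were 648 to 1498 for Tubb3, 826 to 2870 for Nes, 70 to 996 for Sox1, 59 to 293 for Sox3 and 24 to 229 for Pax6. The counts were low for 3 genes, with raw counts of 0 to 21 for Zic1, 2 to 23 for Pax3 and 0 to 17 for Hes5. Zic1 and Pax3 passed the filter on low counts through Pds5a-KO cells given siPds5b, siStag1 or siStag2. These were the only groups with a library over 10 raw counts of either gene. Calls of Zic1 as higher in those groups thus depend on the libraries that carried it through the filter. Hes5 did not pass the filter and was not tested. Counts of called members below are therefore out of the 7 genes that could be tested.

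**Figure D1:**
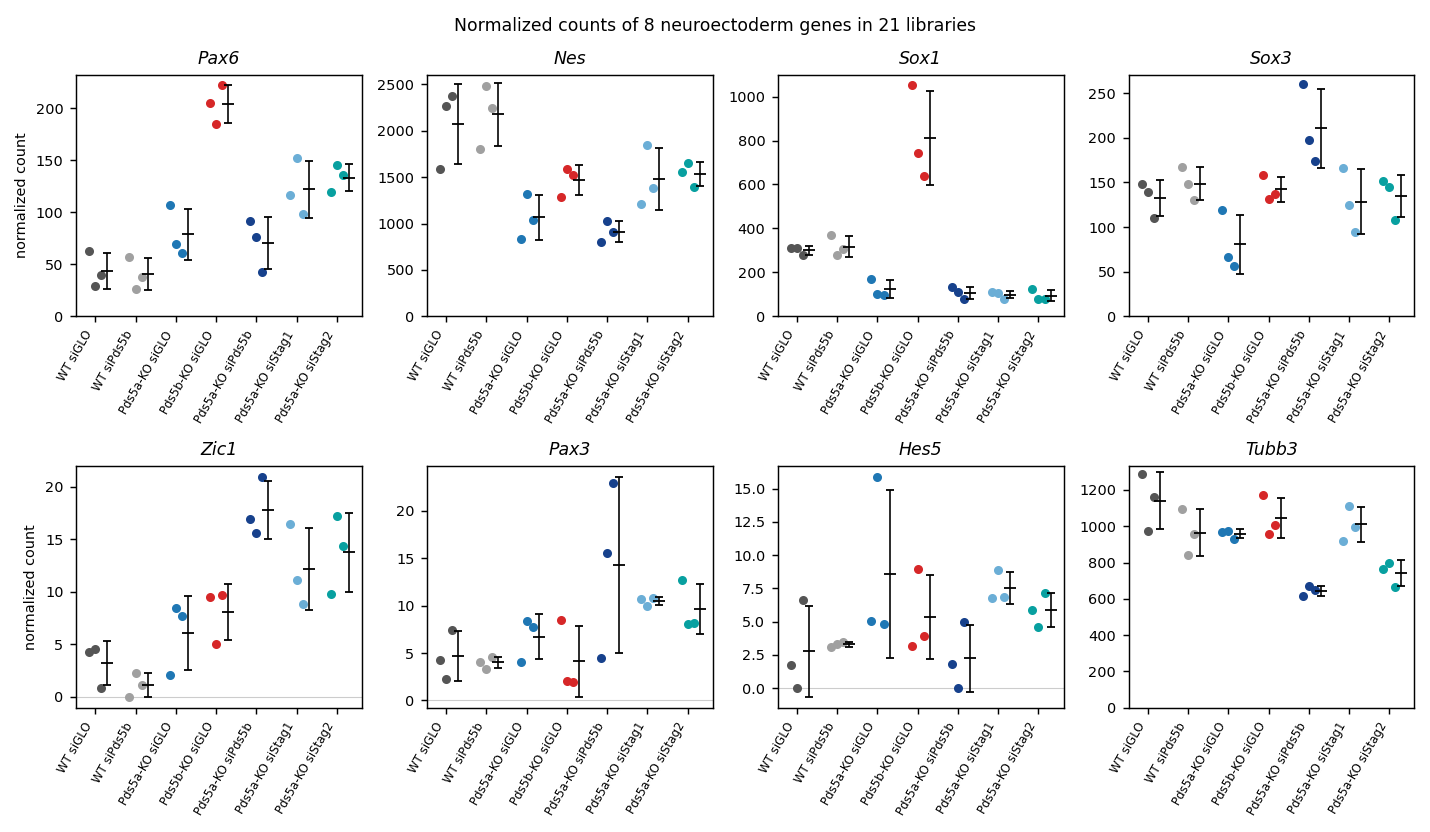
Each panel plots the normalized counts of a gene (y axis, from 0, with its own range) in the 7 groups (x axis), with a point per library and the mean and SD of 3 libraries beside the points. In Pds5b-KO siGLO the points of Pax6 (185 to 222) and Sox1 (637 to 1051) lie above those of all other groups, while Zic1, Pax3 and Hes5 stay at or below 24 normalized counts.

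In WT cells with siPds5b, none of the early neural genes passed the threshold. Over all 14963 genes, edgeR's quasi-likelihood test called 0.00668% at a Benjamini-Hochberg adjusted p below 0.01 for WT siPds5b against WT siGLO, and it called 0 of the 7 tested members. The adjusted p was 1 for each member. At an unadjusted p below 0.05 there was 1 member, Tubb3, and DESeq2 called 0. Tubb3 had 1287, 973 and 1163 normalized counts in WT siGLO and 1095, 842 and 960 in WT siPds5b. It was lower in each of the 3 libraries than in the WT siGLO library of the same number, while the groups overlapped, and with the replicate block the adjusted p was 0.784. Sox3 had 149, 140 and 110 normalized counts in WT siGLO and 167, 149 and 131 in WT siPds5b, higher in each pair, with an adjusted p of 0.985 in the blocked fit. Nes had 1583, 2265 and 2373 normalized counts in the WT siGLO libraries and 1805, 2480 and 2247 in the WT siPds5b libraries. For Sox1 the values were 313, 311 and 278 in WT siGLO, and 369, 278 and 307 in WT siPds5b. The groups overlapped for both genes. Pax6 was low in both groups, with 62.7, 29.3 and 39.7 normalized counts in WT siGLO and 57.1, 26.8 and 37.9 in WT siPds5b.

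In Pds5b-KO cells the transcription factors Pax6 and Sox1 rose. In the fit without a block they were the 2 members called of the 7 tested, beside 18.2% of all tested genes. Pax6, a regulator of eye and forebrain progenitors, had 205, 185 and 222 normalized counts in the Pds5b-KO siGLO libraries. Every Pds5b-KO library lay above all 18 other libraries for Pax6. The log2 fold change of Pax6 against WT siGLO was 2.20 (SE 0.284, adjusted p = 4.84e-06). Sox1, the earliest marker specific to neural cells among the SoxB1 genes, had 1051, 744 and 637 normalized counts in Pds5b-KO siGLO. These libraries too lay above all others, although they ranged more widely than those of WT siGLO. The log2 fold change of Sox1 against WT siGLO was 1.43 (SE 0.211, adjusted p = 3.6e-05). Against WT siPds5b, which was treated with an siRNA and not edited, Pax6 (2.32, SE 0.293, adjusted p = 3.79e-06) and Sox1 (1.35, SE 0.212, adjusted p = 7.9e-05) were higher in Pds5b-KO on the same log2 scale, where 18.8% of all tested genes were called.

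No other member was called in Pds5b-KO against WT siGLO in the fit without a block. With the replicate number as a block, Nes was called as well. The replicate numbers of these groups deviated together in every pair (r of deviations from group means 0.102 to 0.316). Zic1 had 9, 5 and 10 raw counts in Pds5b-KO siGLO against 5, 4 and 1 in WT siGLO. On the normalized scale its Pds5b-KO libraries lay above those of WT siGLO, and the log2 fold change of 1.35 had an adjusted p of 0.0959. Without WT siGLO replicate 3 the Zic1 change was 0.87. Sox3, a close relative of Sox1, had 158, 132 and 137 normalized counts, against 149, 140 and 110 in WT siGLO, and the groups overlapped. Nes had 1287, 1589 and 1526 in Pds5b-KO siGLO. The highest Pds5b-KO library was just above the lowest WT siGLO library, and the log2 fold change of -0.50 (SE 0.189) had an adjusted p of 0.0543, which became 0.000359 at a log2 fold change of -0.49 when the replicate number was fitted as a block. Tubb3 had 1170, 956 and 1009 normalized counts, within the range of WT siGLO except for the library at 956. The median log2 fold change of the 7 tested members was 0.10, beside -0.00288 over all tested genes, with members on both sides of 0.

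In Pds5a-KO cells the direction of Sox1 was the opposite, and Nes fell with it. These were the 2 members called of 7, beside 17.8% of all tested genes, for Pds5a-KO siGLO against WT siGLO. Sox1 had 171, 103 and 98.3 normalized counts in Pds5a-KO siGLO. All 3 libraries were below every WT library, and the log2 fold change was -1.28 (SE 0.229, adjusted p = 0.000277). Nes had 839, 1319 and 1044 normalized counts, likewise below every WT library, and its log2 fold change was -0.96 (SE 0.191, adjusted p = 0.00125). The Nes call was lost, at an adjusted p of 0.0165, when only these 2 groups were fitted. Sox3 had 119, 66.4 and 56.9 normalized counts, with its first library inside the WT siGLO range, and its log2 fold change of -0.72 (SE 0.24) had an adjusted p of 0.0268. Without the first Pds5a-KO siGLO library the Sox3 change was -1.11 with an adjusted p of 0.00119, so that the call depended on 1 library. Pax6 had 107, 69.2 and 60.7 normalized counts in Pds5a-KO siGLO. They overlapped WT siGLO, whose first library was at 62.7, and the log2 fold change of 0.82 (SE 0.297) had an adjusted p of 0.0414.

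A direct comparison of the knockouts gave the test of whether they differ. Pds5b-KO siGLO against Pds5a-KO siGLO called 2 of the 7 members, both higher in Pds5b-KO, beside 19.2% of all tested genes. Sox1 was higher by 2.71 on the log2 scale (SE 0.228, adjusted p = 2.58e-08), and Pax6 was higher by 1.38 (SE 0.269, adjusted p = 0.00052). The fold change of Sox1 was thus set by opposite movements in the clones. Sox3 differed by 0.82 (adjusted p = 0.0116) and Nes by 0.46 (adjusted p = 0.0769), and neither passed the threshold in this edgeR fit. DESeq2 called 3 of the members. With a replicate block both Sox3 (adjusted p = 0.000187) and Nes (0.000592) passed in edgeR, although the replicate numbers of the knockouts are not paired. Without the first Pds5a-KO siGLO library the Sox3 difference was 1.22 with an adjusted p of 0.000485.

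Where Pds5b was depleted in the Pds5a-KO clone, Sox1, Nes and Tubb3 were lower than in WT siGLO and Zic1 was higher. These 4 members were called of 7, beside 32.0% of all tested genes. Sox1 had 132, 112 and 78.7 normalized counts in Pds5a-KO siPds5b, overlapping Pds5a-KO siGLO and lying below all WT libraries (log2 fold change -1.47, SE 0.232, adjusted p = 3.24e-05 against WT siGLO). Nes had 799, 1024 and 908 normalized counts. It too overlapped Pds5a-KO siGLO and lay below all WT libraries (-1.19, SE 0.192, adjusted p = 9.58e-05). Tubb3 had 615, 672 and 648 normalized counts. All 3 of its libraries were below every library of the WT, Pds5a-KO siGLO and Pds5b-KO siGLO groups, and the log2 fold change was -0.83 (SE 0.108, adjusted p = 1.42e-06). Zic1, a zinc finger factor of the dorsal neural tube, had 19, 15 and 21 raw counts against 5, 4 and 1 in WT siGLO. The groups did not overlap, and the log2 fold change of Zic1 was 2.48 (SE 0.546, adjusted p = 0.000718). At these counts Zic1 changed from barely detected to low. Zic1 passed the filter on low counts through this group and those given siStag1 or siStag2. Its calls here therefore depend on the same libraries. Against WT siPds5b, where 30.6% of all tested genes and 4 of the 7 members were called, Sox1 (-1.56, SE 0.233, adjusted p = 2.02e-05), Nes (-1.26, SE 0.193, adjusted p = 6.28e-05) and Tubb3 (-0.58, SE 0.109, adjusted p = 0.000142) were again lower. Zic1 was the fourth (adjusted p = 8.08e-05), with 55 raw counts over the group against 3 in WT siPds5b, a ratio of 16.3 (95% interval 5.29 to 81.4, counting error only).

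Not all changes against WT in the doubly depleted cells were already present in Pds5a-KO siGLO. Pds5a-KO siPds5b against Pds5a-KO siGLO called 2 of the 7 members, beside 7.59% of all tested genes. Sox3 had 260.2, 198 and 174 normalized counts with siPds5b, against 119, 66.4 and 56.9 with siGLO in the same clone. Its siPds5b libraries lay above those of all other groups, and the log2 fold change was 1.39 (SE 0.236, adjusted p = 0.000245, or 0.0138 when only these 2 groups were fitted). Against WT siGLO, Sox3 was 0.67 higher on the log2 scale (adjusted p = 0.0181). Tubb3 was lower with siPds5b by a log2 fold change of -0.57 (SE 0.108, adjusted p = 0.000721). Zic1 had 2, 9 and 8 raw counts in Pds5a-KO siGLO, all below the siPds5b libraries, and its adjusted p was 0.0357 (log2 fold change 1.52).

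The interaction of genotype and siPds5b asks whether the siRNA acted differently in Pds5a-KO and WT cells. It called 0 of the 7 members with edgeR, beside 1.48% of all tested genes, and 3 had an unadjusted p below 0.05. DESeq2 called 1 member, Sox3 (adjusted p = 0.00903). Sox3 had the lowest p in edgeR too, its log2 interaction being 1.22 (SE 0.329, adjusted p = 0.0358). Without the first Pds5a-KO siGLO library the value for Sox3 was 1.61 and the adjusted p was 0.00328. In the fit blocked by replicate number it was 1.24 with an adjusted p of 0.000773. The replicate numbers of these groups did not deviate together in every pair (lowest r of deviations from group means -0.137). The greater response of Sox3 in the Pds5a-KO clone thus passed the threshold in the blocked fit and in DESeq2, and not in the fit without a block.

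Depletion of STAG1 or STAG2 in the Pds5a-KO clone left Sox1 low and came with more Pax6 than in WT cells. Against WT siGLO, Pds5a-KO siStag1 called 2 of the 7 members beside 20.0% of all tested genes, and Pds5a-KO siStag2 called 4 beside 30.1%. Pax6 had 116, 152 and 98.3 normalized counts with siStag1 and 119, 146 and 136 with siStag2. All 6 libraries were above every WT library and below every Pds5b-KO library. The log2 fold changes of Pax6 were 1.45 with siStag1 (SE 0.29, adjusted p = 0.000504) and 1.58 with siStag2 (SE 0.289, adjusted p = 0.000141). These comparisons hold the difference between the Pds5a-KO clone and WT cells as well. Against Pds5a-KO siGLO, Pax6 was called with neither siRNA. Sox1 had 112, 105 and 79.6 normalized counts with siStag1 and 124, 80.3 and 79.7 with siStag2, in the range of Pds5a-KO siGLO or below it. Its log2 fold changes against WT siGLO were -1.60 (SE 0.235, adjusted p = 2.67e-05) and -1.66 (SE 0.237, adjusted p = 1.29e-05). Tubb3 was called with siStag2, at 763, 798 and 663 normalized counts (-0.62, SE 0.108, adjusted p = 6.27e-05), all below every WT library. Zic1 had 10, 15 and 14 raw counts with siStag2, and its log2 fold change of 2.10 (SE 0.57) had an adjusted p of 0.00463. This Zic1 call was lost without the third WT siGLO library (adjusted p = 0.0387), the second siStag2 library (0.0205) or the third (0.0144). It also depends on libraries that carried Zic1 through the filter on low counts. With siStag1, Zic1 had 17, 10 and 9 raw counts and an adjusted p of 0.0124.

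Within the Pds5a-KO clone, neither Stag siRNA gave a called member in the fit without a block. For siStag1 against siGLO edgeR called 0 of 7 beside 0.0936% of all tested genes, with 3 members at an unadjusted p below 0.05 and 0 called by DESeq2. For siStag2 against siGLO it called 0 of 7 beside 2.24%, with 5 members at an unadjusted p below 0.05 and 0 called by DESeq2. Pax6 had a log2 fold change of 0.63 with siStag1 (SE 0.275, adjusted p = 0.4), and these groups overlapped. With siStag2 it was 0.76 (SE 0.274, adjusted p = 0.0865), with all siStag2 libraries above those of siGLO. Nes had 1551, 1653 and 1391 normalized counts with siStag2, above all Pds5a-KO siGLO libraries (log2 fold change 0.52, adjusted p = 0.105). Sox3 had 151, 145 and 108 normalized counts, with the lowest library inside the siGLO range (0.74, adjusted p = 0.058). With the replicate number as a block, both passed, Nes at 0.55 (adjusted p = 0.00092) and Sox3 at 0.76 (adjusted p = 0.00325). The replicate numbers of siStag2 and siGLO deviated together in every pair (r of deviations from group means 0.14 to 0.263). The Stag siRNAs were also compared with each other, which called 0.394% of all tested genes and 0 of 7 members with edgeR, with 1 member at an unadjusted p below 0.05 and 1 called by DESeq2. Tubb3 was that member, lower with siStag2 by a log2 fold change of -0.45 (adjusted p = 0.0292).

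**Figure D2:**
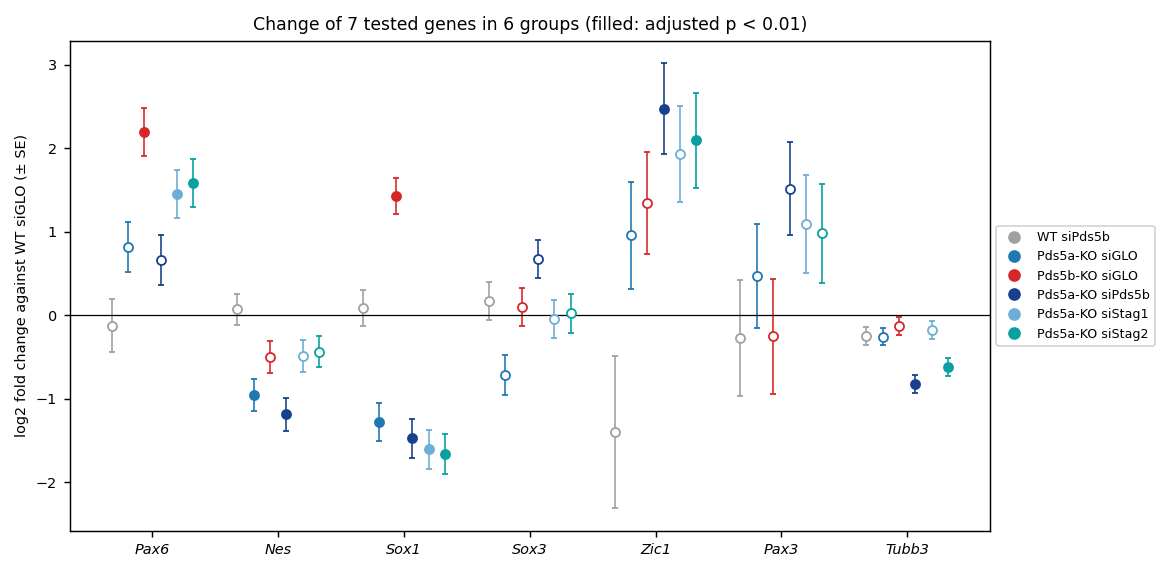
Log2 fold changes against WT siGLO with their SE (y axis) are plotted for the 7 tested genes (x axis) in the 6 other groups, which share the 3 WT siGLO libraries, and filled points have an adjusted p below 0.01. Sox1 is at 1.43 in Pds5b-KO siGLO and between -1.28 and -1.66 in the 4 Pds5a-KO groups, while Pax6 is above 0 in all 5 knockout groups and filled in 3 of them.

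The 3 scarce genes are given by their counts. Zic1 had 0, 2 and 1 raw counts in WT siPds5b and 9, 5 and 10 in Pds5b-KO siGLO, a ratio of 7.38 between the groups (95% interval 2.24 to 38.3, counting error only). Zic1 made this the third member called for Pds5b-KO siGLO against WT siPds5b (adjusted p = 0.00947). That call was lost on leaving out any 1 of the 6 libraries, with the replicate block (adjusted p = 0.0104) and in DESeq2 (0.0129). Pax3 had 5, 2 and 9 raw counts in WT siGLO and 5, 15 and 23 in Pds5a-KO siPds5b, its highest group. These groups overlapped because the first siPds5b library was at the level of WT, and the log2 fold change of 1.52 had an adjusted p of 0.0297. Without that first library the change of Pax3 was 1.95 with an adjusted p of 0.00437. With siStag1 Pax3 had 11, 9 and 11 raw counts and with siStag2 13, 7 and 8, in each case above all WT libraries on the normalized scale, and neither was called. Its raw counts in the remaining groups were 2 to 9. Hes5 had 2, 0 and 8 raw counts in WT siGLO, 5, 17 and 5 in Pds5a-KO siGLO and 3, 9 and 4 in Pds5b-KO siGLO. It had 2, 0 and 5 in Pds5a-KO siPds5b, 7, 8 and 7 with siStag1 and 6, 4 and 7 with siStag2. Without the filter on low counts, edgeR called Hes5 in 0 of 14 comparisons, with 1 at an unadjusted p below 0.05 and a lowest adjusted p of 0.13, so that a difference of Hes5 was not detectable at this depth.

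Ordered by mean level, neighbouring groups overlapped for most genes. Pax6 ran from Pds5b-KO siGLO (204 ± 18.4 normalized counts, SD, n = 3) through siStag2 (134 ± 13.4) and siStag1 (122 ± 27.5) in Pds5a-KO cells to Pds5a-KO siGLO (78.9 ± 24.4), Pds5a-KO siPds5b (70.3 ± 24.9), WT siGLO (43.9 ± 17.1) and WT siPds5b (40.6 ± 15.3). The step from Pds5b-KO to the next group was the one in that order without overlap. For Sox1, Pds5b-KO siGLO (811 ± 215) stood apart from WT siPds5b (318 ± 46.5) and WT siGLO (300.5 ± 19.7), and these stood apart from the 4 Pds5a-KO groups, whose means were 94.6 to 124. Nes ran without a gap between neighbours from 2177 ± 343 in WT siPds5b and 2074 ± 429 in WT siGLO to 1067 ± 241 in Pds5a-KO siGLO and 910.4 ± 113 in Pds5a-KO siPds5b. For Sox3 the one gap lay between Pds5a-KO siPds5b (211 ± 44.3) and WT siPds5b (149 ± 18.1). For Tubb3 it lay between Pds5a-KO siGLO (958 ± 25) and Pds5a-KO siStag2 (742 ± 69.9), above Pds5a-KO siPds5b (645 ± 28.3).

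Sox1 and Tubb3 lie on chromosome 8, and the other genes of that chromosome moved in the same libraries. The median log2 fold change of the other 725 tested genes of chromosome 8 was 0.30 in Pds5b-KO siGLO against WT siGLO (267 higher and 11 lower at the threshold) and -0.20 in Pds5a-KO siGLO (38 higher and 165 lower). The other chromosomes had medians of -0.069 to 0.037 in the first comparison and -0.028 to 0.08 in the second. Between the knockouts the chromosome 8 median was 0.48. As an alternative chosen after seeing the data, the counts were scaled over the chromosome 8 genes only. The log2 fold change of Sox1 was then 1.13 in Pds5b-KO siGLO (adjusted p = 0.000605) and -1.10 in Pds5a-KO siGLO (adjusted p = 0.00136), and Sox1 differed between the knockouts by 2.23 (adjusted p = 8.53e-07). The Sox1 change thus remained larger than that of its chromosome in both directions. Tubb3 kept its calls, at -0.62 in Pds5a-KO siPds5b (adjusted p = 4.01e-05) and -0.44 in Pds5a-KO siStag2 (adjusted p = 0.00149). In Pds5b-KO siGLO, where it had not been called, Tubb3 was then lower by -0.43 (adjusted p = 0.00325). Around Sox1, 8 of the 20 nearest tested genes, 10 on either side, were higher in Pds5b-KO siGLO and 1 was lower, with a median log2 fold change of 0.34. Of all tested genes, 9.64% were higher and 8.57% lower in that comparison. The part of the chromosome-wide shift in the Sox1 and Tubb3 values was not tested beyond this scaling.

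**Figure D3:**
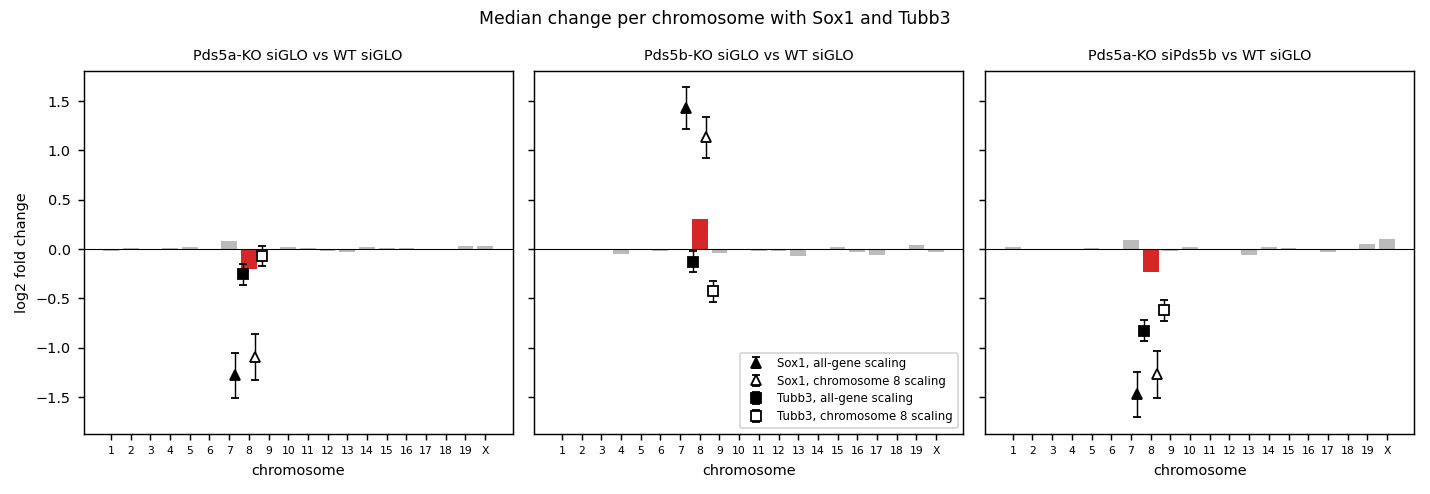
Bars are the median log2 fold change (y axis) of the tested genes of each chromosome (x axis) in 3 comparisons, and symbols at chromosome 8 are Sox1 (triangles) and Tubb3 (squares) with their SE, filled with all-gene scaling and open with scaling over chromosome 8. The chromosome 8 bar is at 0.30 in Pds5b-KO siGLO, -0.20 in Pds5a-KO siGLO and -0.23 in Pds5a-KO siPds5b. Sox1 with all-gene scaling lies farther from 0 than the bar in each panel. The bars use all-gene scaling, so the open symbols are not to be read against them.

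The nearest tested genes on either side of the members were also examined. Bcan, a brain proteoglycan gene 7.08 kb from Nes, was higher in Pds5a-KO siGLO, where Nes was lower (log2 fold change 1.21, adjusted p = 0.000667), and Crabp2, on the other side, was higher too (0.75, adjusted p = 0.00754). Rcn1, 270 kb from Pax6, fell in Pds5b-KO siGLO by 1.07 on the log2 scale, where Pax6 rose, and Elp4, 3.66 kb from Pax6 on the other side, was not called in the single or combined Pds5 depletions. Of the neighbours of Sox1, Arhgef7 rose by 0.63 in Pds5b-KO siGLO and Tubgcp3 was called in Pds5a-KO siGLO at -0.38. Ldoc1, 816 kb from Sox3, was higher in Pds5a-KO siGLO (1.70) and Pds5b-KO siGLO (1.71). Of the 20 nearest tested genes of Sox3, 6 were higher and 3 lower in Pds5a-KO siGLO, with a median log2 fold change of 1.0. In Pds5a-KO siPds5b 10 were higher and 1 lower (median 0.96), and in Pds5b-KO siGLO 3 and 3 (median 0.041). Over all tested genes, 9.63% were higher and 8.12% lower in Pds5a-KO siGLO. The shares were 17.4% and 14.6% in Pds5a-KO siPds5b, and 9.64% and 8.57% in Pds5b-KO siGLO. Mc1r, 0.68 kb from Tubb3, had 0 to 19 raw counts per library and was lower in Pds5a-KO siGLO (-3.41, adjusted p = 0.00362). The Mc1r call was lost in 5 of 11 alternatives of the processing. The Crabp2 call was lost in 5 of 13, and the Ldoc1 call in 6 of 12 for each knockout. Around the scarce genes, Plscr1 next to Zic1 was called at -0.71 in Pds5b-KO siGLO and Tbc1d2b at 0.39. Neither Fam213b nor Pank4 near Hes5 was called in these 3 comparisons with WT siGLO, nor was Sgpp2 near Pax3, while Epha4 on its other side was called at -0.66 in Pds5a-KO siPds5b. Neighbours of the members thus included genes that moved with them, against them and not at all.

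Genes were also ranked by how closely their 6 log2 fold changes against WT siGLO matched those of a member, as the root mean square difference, a description over 6 comparisons that share the WT siGLO libraries. For Pax6 the closest were Gm996 (0.2), Drd4 (0.27) and Kcnq5 (0.3). For Nes they were Kcnab2 (0.15), St3gal4 (0.18) and Amigo1 (0.19). For Sox1 they were Slc6a14 (0.17), Tpte (0.38) and Adprhl1 (0.39), and the last 2 of these are on chromosome 8 like Sox1. For Zic1 they were D030018L15Rik (0.31), Pion (0.42) and Ak5 (0.42), and for Tubb3 Smim13 (0.068), Twistnb (0.074) and Cdkal1 (0.093). The members themselves were left out of this ranking.

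The wider neural program moved in parts. The Notch ligands Dll1, Dll3 and Jag2 and the factor Hes6 rose in all 3 Pds5 depletions that involved a knockout, with 6 higher and 0 lower of 17 tested Notch pathway genes in Pds5a-KO siGLO, 5 and 0 in Pds5b-KO siGLO, and 9 and 2 in Pds5a-KO siPds5b. Dll1, a Notch ligand, had 66.2, 48.4 and 48.8 normalized counts in WT siGLO and 370.2, 311 and 374 in Pds5a-KO siPds5b, a log2 fold change of 2.68 (adjusted p = 1.41e-10). It was called at 1.14 in Pds5b-KO siGLO. Hes6, which opposes Hes1 in neurogenesis, was called at 0.96 in Pds5b-KO siGLO and 1.99 in Pds5a-KO siPds5b. Hey1 was called at 1.71 in Pds5a-KO siPds5b but had an adjusted p of 1 in Pds5b-KO siGLO, and Jag2, another ligand, at 1.31 in Pds5b-KO siGLO. Hes1, an effector related to Hes5, was lower in Pds5a-KO siPds5b (-1.01), with values of -0.70 in Pds5a-KO siGLO (adjusted p = 0.0141) and -0.48 in Pds5b-KO siGLO (adjusted p = 0.0743) that did not pass. Also lower in Pds5a-KO siPds5b was Mfng, which encodes a glycosyltransferase that modifies Notch (-0.73). The list also held Id2, an inhibitor of helix-loop-helix factors better known as a target of BMP signalling, which was called at 1.70 in Pds5a-KO siGLO. Id2 (0.94) and its relative Id1 (1.58) were both among the higher genes in Pds5a-KO siPds5b. Both were also higher with siStag1 and with siStag2, and neither was called in Pds5b-KO siGLO. Over all tested genes, edgeR called 9.63% higher and 8.12% lower in Pds5a-KO siGLO, 9.64% and 8.57% in Pds5b-KO siGLO, and 17.4% and 14.6% in Pds5a-KO siPds5b. The median log2 fold change of the Notch list was 0.31, 0.46 and 0.46 in the 3 comparisons, beside -0.00288 to 0.0021 over all tested genes.

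Proneural factors, which drive progenitors towards neurons, gave 3 higher and 1 lower of 8 tested in Pds5a-KO siGLO, 4 and 0 in Pds5b-KO siGLO, and 3 and 1 in Pds5a-KO siPds5b. Over all tested genes, the shares called higher and lower were 9.63% and 8.12%, 9.64% and 8.57%, and 17.4% and 14.6% in the same order. Insm1, a zinc finger factor of neurogenic progenitors, had 42.1, 28.2 and 29.8 normalized counts in WT siGLO and 320, 220 and 236 in Pds5b-KO siGLO, with log2 fold changes of 2.94 there (adjusted p = 1.5e-08) and 2.61 in Pds5a-KO siPds5b. All Insm1 libraries of these knockout groups were above all WT libraries. In Pds5b-KO siGLO, Neurod1 was also higher (1.14). In Pds5a-KO siPds5b, Atoh1 was higher (3.87) and Olig2 was lower (-1.22). Neurog2 had 33, 15 and 20 raw counts in Pds5a-KO siPds5b and 1, 0 and 0 in WT siGLO, a ratio of 71.6 (95% interval 12.4 to 2870, counting error only).

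**Figure D4:**
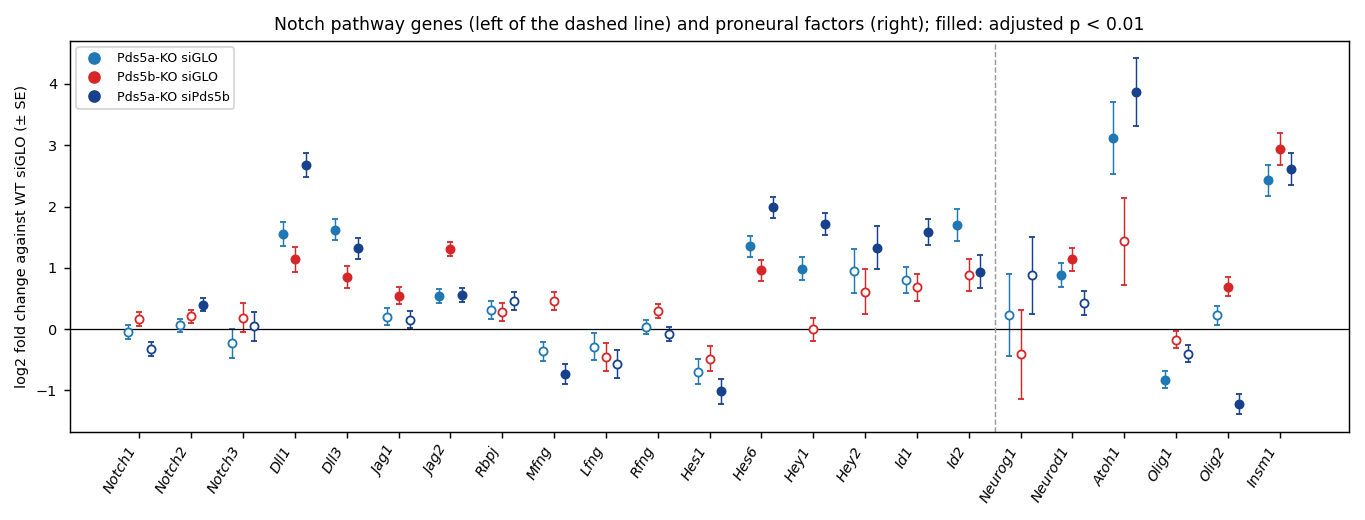
Log2 fold changes against WT siGLO with their SE (y axis) are plotted for the tested Notch pathway genes and proneural factors reported here (x axis) in 3 groups, with filled points at an adjusted p below 0.01 and without Neurog2, which had 1 count in all WT siGLO libraries together. Insm1 is filled at 2.43, 2.94 and 2.61 in Pds5a-KO siGLO, Pds5b-KO siGLO and Pds5a-KO siPds5b, and Dll1 at 1.56, 1.14 and 2.68.

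Other neural lists held called genes in both directions. The counts below stand beside 9.64% higher and 8.57% lower of all tested genes in Pds5b-KO siGLO. In Pds5a-KO siPds5b these shares were 17.4% and 14.6%. Of 18 tested neural progenitor genes, 3 were higher and 2 lower in Pds5b-KO siGLO, and 6 and 4 in Pds5a-KO siPds5b. Lhx2 (1.42), En2 (1.21 on the log2 scale) and Sox11 (0.41), all transcription factors of the developing brain, were the higher genes in Pds5b-KO siGLO, and Ncam1 (-1.40) and Vim (-1.16) the lower. In Pds5a-KO siPds5b, the forebrain factor Otx1 (2.64) and Sox9 (1.80), a factor of neural stem cells and the crest, were higher. En2 was lower there (-0.78), in the opposite direction to Pds5b-KO. Of 5 tested SoxB and Zic relatives of the members, Sox21 was higher in Pds5b-KO siGLO (0.74), while Zic2 was higher (0.46) and Sox2 lower (-0.79) in Pds5a-KO siPds5b. Of 17 tested genes of neuronal differentiation, 4 were higher and 6 lower in Pds5b-KO siGLO, with Syp (1.06), Elavl4 (0.98) and Elavl3 (0.97) against Mapt (-1.50), Dpysl3 (-1.21) and Tubb2b (-1.11). In Pds5a-KO siPds5b 5 were higher and 4 lower, with Syp at 2.14, Elavl3 at 1.09 and Map2 at 0.68 against Stmn3 at -1.47, Stmn2 at -1.39 and Mapt at -1.35. Among 6 tested beta-tubulin relatives of Tubb3, 0 were higher and 3 lower in Pds5b-KO siGLO, Tubb4a at -1.18, Tubb2b at -1.11 and Tubb2a at -0.98, while in Pds5a-KO siPds5b Tubb6 was higher (0.84) and Tubb2b lower (-0.99). Of 8 tested neural crest genes, Snai2 was higher in Pds5a-KO siPds5b (3.14) and Ngfr lower in Pds5b-KO siGLO (-0.64).

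The remaining groups gave the same lists in the following counts. In Pds5a-KO siGLO, edgeR called 1 neural progenitor gene higher and 2 lower, and 5 genes of neuronal differentiation higher and 4 lower. Of all tested genes, 9.63% were higher and 8.12% lower in that comparison. It called 0 higher and 1 lower of the SoxB and Zic relatives, 1 and 1 of the beta-tubulins, and 1 and 0 of the neural crest genes there. Over all tested genes, 10.6% were higher and 9.37% lower with siStag1 against WT siGLO, and 16.2% and 13.9% with siStag2. With siStag1, 8 of 17 Notch pathway genes were higher and 1 lower, and with siStag2 the numbers were the same. Proneural factors gave 4 higher and 1 lower of 8 with siStag1, where DESeq2 called 3 in all, and 2 higher and 1 lower with siStag2. Neural progenitor genes gave 3 and 3 with siStag1 and 4 and 3 with siStag2, and genes of neuronal differentiation 5 and 4 with either siRNA. No list was tested as a whole.

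Markers of other cell states were measured beside these genes. Over all tested genes, edgeR called 17.8% to 32.0% in the 5 comparisons of knockout groups with WT siGLO. In Pds5b-KO siGLO 9.64% were higher and 8.57% lower, and in Pds5a-KO siPds5b 17.4% and 14.6%. Of 9 pluripotency markers, 1 was higher and 6 lower in Pds5b-KO siGLO, Dppa3 at 1.45 against Tbx3 at -1.90, Tfcp2l1 at -1.12 and Nanog at -1.02. In Pds5a-KO siPds5b 1 was higher and 8 lower, Dppa3 at 2.46 against Tbx3 at -2.56, Klf4 at -2.45 and Tfcp2l1 at -2.28. Nes and Vim are also expressed by fibroblasts, and the summed normalized counts of 8 fibroblast markers were 1169 to 1622 in WT siGLO, 1807 to 2260 in WT siPds5b, 413 to 1632 in Pds5a-KO siGLO, 417 to 544 in Pds5b-KO siGLO, 529 to 1505 in Pds5a-KO siPds5b, 343 to 1034 in siStag1 and 696 to 1017 in siStag2. Dcn and Lum were at or near 0 in most libraries, while Col1a1 had 442, 505 and 662 normalized counts in WT siGLO. Between WT siGLO and WT siPds5b the sum was higher with siPds5b while the Nes libraries overlapped. Of 6 tested fibroblast markers, 0 were higher and 2 lower in Pds5b-KO siGLO, Postn at -3.68 and Thy1 at -0.76, and Postn alone was lower in Pds5a-KO siPds5b (-2.55). The part of these markers in the lower Nes was not tested. For 8 primitive endoderm markers edgeR and DESeq2 called 0 in the 5 comparisons of knockout groups with WT siGLO, with 3 at an unadjusted p below 0.05 in Pds5b-KO siGLO, 1 in Pds5a-KO siPds5b and 0 in the others, and their summed normalized counts were 1294 to 2154 in WT siGLO and 2172 to 4722 in Pds5b-KO siGLO. Of 7 tested mesoderm markers, Hand1 (3.22) and Foxf1 (2.36) were higher and Eomes (-1.34) lower in Pds5a-KO siPds5b, and Eomes was lower in Pds5b-KO siGLO (-0.99). In WT siPds5b against WT siGLO, edgeR and DESeq2 called 0 of the 106 tested genes of all lists, with 6 at an unadjusted p below 0.05. Of all tested genes, edgeR called 0.00668% there.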

How the data were processed

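Poly-A enriched RNA of 21 cultures was sequenced by the study, aligned with STAR to mm10 and deposited by the authors as raw read counts per gene symbol for each library. The counting tool, its annotation and its use of strand are not given in the sources used here. The deposited counts were used as they stand, with groups from the sample labels, and each library held 17311090 to 23989198 counts.

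Counts were tested with edgeR 4.0.16 (R 4.3.3, limma 3.58.1), with TMM scaling, a filter on low counts over the 7 groups (14963 genes kept) and robust quasi-likelihood fits over all 21 libraries without a block, at a Benjamini-Hochberg adjusted p below 0.01. SE values derive from the F statistic. The study used DESeq2, and version 1.42.0 is an alternative here. Others were RLE scaling, library size alone, no filter, at least 10 counts in every library, fits of only the groups compared, a replicate block, leaving out each library, a threshold of 0.05 and, chosen after seeing the data, scaling over chromosome 8. Comparisons with WT siGLO share its 3 libraries, as those with Pds5a-KO siGLO share theirs. The fits were tested on simulated counts. Replicates differed beyond counting noise (chi-square per gene 4.98 to 26.7), so that none were merged.

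The same replicate numbers deviated together in every pair (r of deviations from group means above 0.1) for WT siPds5b (0.354 to 0.534) and Pds5b-KO siGLO (0.102 to 0.316) against WT siGLO, and for siPds5b (0.347 to 0.699), siStag1 (0.154 to 0.623) and siStag2 (0.14 to 0.263) against siGLO in Pds5a-KO cells. The pairing there comes from these correlations, and the labels name no shared batch.

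The members and gene lists were chosen with earlier results of these data known. Genes named beyond the members were the 3 largest called increases and decreases of each list in Pds5b-KO siGLO and Pds5a-KO siPds5b against WT siGLO, the nearest tested gene on either side of a member, overlapping genes, and the 3 genes closest to each called member. Some genes that this rule names are not reported here, although the counts of their lists include them. Gene positions come from GENCODE and matched 14050 of the 14963 tested genes. Promoters are RefSeq windows on GRCm38.p6.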

Additional observations from a re-analysis of the deposited data

Results flagged for a closer look

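The difference between the knockout clones was flagged for 2 genes, because their changes against WT siGLO differed in a direct test with edgeR. Sox1 was 2.71 higher on the log2 scale in Pds5b-KO siGLO than in Pds5a-KO siGLO (SE 0.228, adjusted p = 2.58e-08), with all 3 Pds5b-KO libraries above and all 3 Pds5a-KO libraries below every WT library. Pax6 was 1.38 higher (SE 0.269, adjusted p = 0.00052), again with every Pds5b-KO library above every Pds5a-KO library. Groups of 3 libraries were too small for a test of outlying libraries.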

How the results depend on the processing

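Of the 25 member comparisons called, 21 stayed called under every alternative run, and none of the 49 followed changed direction. Of 109 calls of other named genes, 81 held under every alternative, and none changed direction. Among calls in Pds5b-KO siGLO, Thy1 was lost in 8 of 13 alternatives, Tbc1d2b in 6, Sox21 and Elavl4 in 5 and Eomes in 4. Members called moved from 2 to 4 at 0.05 and 1 with only the groups compared for Pds5a-KO siGLO against WT siGLO. For siPds5b against siGLO in Pds5a-KO cells they moved from 2 to 1 with only the groups compared. Between the knockouts, whose replicate numbers are not paired, they moved from 2 to 3 in DESeq2 and 4 with the replicate block. They moved from 0 to 1 at 0.05 and 2 with the block for siStag2 against siGLO, from 0 to 1 at 0.05 and in DESeq2 for siStag2 against siStag1, and from 0 to 1 at 0.05, with the block and in DESeq2 for the interaction, which ranged from 0 to 1 when 1 library was left out. In the comparisons without pairing, the block also added Nes and Sox3 calls, such as Sox3 in Pds5a-KO siGLO against WT siGLO (adjusted p = 8e-04) and Nes in siStag1 (0.000289) and siStag2 (0.00104) against WT siGLO. In the paired comparisons it changed no other call than those given above. Pax6 was added for siPds5b against WT siPds5b without siPds5b replicate 3 (1.04, adjusted p = 0.00957), and Pax3 without replicate 1 (2.22, 0.00271). The causes were not tested.

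Over all genes, called totals moved by over 1.5 times mainly in the small comparisons. With the block, DESeq2 and only the groups compared, 335 became 677, 770 and 99 for siStag2 and 14 became 48, 74 and 8 for siStag1 against siGLO in Pds5a-KO cells, 59 became 276, 275 and 93 for siStag2 against siStag1, 222 became 389, 421 and 134 for the interaction, and 1 became 3, 4 and 2 for WT siPds5b, which gave 2 without the filter. With only the groups compared, 1136 became 524 for siPds5b against siGLO in Pds5a-KO cells and 2873 became 1810 between the knockouts. Leaving out 1 library lowered several totals further. For siStag2 against siGLO, 335 became 68 without siStag2 replicate 1, 158 without its replicate 3, and 115 and 128 without siGLO replicates 1 and 2. For siStag1 against siGLO, 14 became 6 and 5 without siStag1 replicates 1 and 2 and 4 without siGLO replicate 2. For siStag2 against siStag1, 59 became 6 to 18 without any 1 of the 6 libraries, and the lowest was without siStag2 replicate 1. The interaction total of 222 became 121 to 143 without WT siGLO replicate 2 or 3, WT siPds5b replicate 1, or replicate 2 of Pds5a-KO siGLO or siPds5b. Without replicate 2 of Pds5a-KO siGLO or of siPds5b, 1136 became 689 or 710. Between the knockouts, 2873 became 1722 without Pds5a-KO siGLO replicate 2 and 1837 and 1904 without Pds5b-KO siGLO replicates 1 and 2. Against WT siGLO, 2656 became 1763 without Pds5a-KO siGLO replicate 2 and 2725 became 1704 without Pds5b-KO siGLO replicate 2, which took 2820 to 1685 against WT siPds5b. Among the lists, DESeq2 called 2 and 3 neural crest genes in Pds5a-KO siGLO and Pds5a-KO siPds5b, where edgeR called 1 each, 2 against 1 SoxB and Zic relatives in Pds5a-KO siGLO, and 2 against 1 mesoderm markers in Pds5b-KO siGLO. Depth limits Zic1, Pax3 and Hes5, with at most 23 raw counts in any library.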
